A study of Mus musculus with 6 samples.

Results

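Titin, nebulin and the genes of the M-band and the C-zone hold the contractile filaments of striated muscle in register. The set described here has 9 genes, chosen by name for this role: Ttn, Neb, Myom1, Myom2, Myom3, Mybpc1, Mybpc2, Mybph and Unc45b. Earlier results of these data were known when these genes were chosen. They are 9 of the 55421 genes in the count table, and 8 of them were among the 18140 genes with enough reads to be tested.

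The libraries came from C2C12 cells, mouse myoblasts that form myotubes in low serum. All cells were a model of myotonic dystrophy type 1 (DM1): they stably carried a GFP plasmid with 200 CUG repeats in the GFP transcript, selected with G418. The control group (3 libraries) had then received the empty pLL4.0 vector, and the miR-322/-503 group (3 libraries) the same vector with the miR-322/-503 cluster, both under puromycin. RNA was taken on day 4 of differentiation in low serum with insulin. The groups are separate stable lines, and what differs between lines cannot be told apart from what the microRNAs do. The labels do not say that the libraries of a group came from separate cultures, and the methods of the study state biological and technical replicates for its assays in general. The p-values measure the spread between these libraries, which may be technical in part. The question of the comparison was what overexpression of miR-322/-503 did to gene expression in differentiating DM1 cells.

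In the sarcomere, thin filaments of actin slide past thick filaments of myosin. Titin runs from the Z-disc to the M-band as a molecular spring and a scaffold for the thick filament, nebulin lies along the thin filament and stabilises it, and the myomesins cross-link thick filaments and titin in the M-band. Myosin-binding proteins C and H sit on the thick filament at regular intervals, and UNC45B is the chaperone that folds the myosin motor during assembly.

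The overexpressed microRNAs have nearly the same seed, the part of a microRNA that pairs with its targets. Their mature sequences from RefSeq (GRCm38.p6) are printed here with the seed, bases 2 to 8, in capitals, because it defines the target site searched for below. Both lie on the minus strand of chromosome X, at chrX:53054306-53054327 for miR-322-5p and chrX:53054027-53054049 for miR-503-5p.
mmu-miR-322-5p: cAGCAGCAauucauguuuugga
mmu-miR-503-5p: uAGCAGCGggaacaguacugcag
The microRNA genes Mir322 and Mir503 were read too thinly in these libraries to check the overexpression. Mir322 had 1, 7 and 2 estimated counts in the control libraries and 17, 0 and 3 in the miR-322/-503 libraries. Mir503 had 1, 1 and 2 against 6, 4 and 5. About 4 estimated counts stood for 1 read pair, and 3 read pairs (12 counts) were taken as the floor, so only 1 of these 12 values lay above it.

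Library totals ran from 73532084 to 92157388 estimated counts, or 18383021 to 23039347 read pairs, with normalisation factors between 0.977 and 1.03. Muscle markers were present in both groups: Des, the intermediate filament of muscle, was at 1149 ± 61.2 and 1800 ± 59.5 CPM (counts scaled to a common library size) and skeletal actin Acta1 at 1300.0 ± 137 and 1386 ± 63.1 CPM in control and miR-322/-503 cells (mean ± SD, n = 3 in each group, here and below). Over all tested genes the median log2 fold change between the groups was -0.0066.

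Of the 8 tested genes, 4 rose in the miR-322/-503 group (Ttn, Neb, Myom1 and Myom2) and 0 fell at an adjusted p under 0.05 (edgeR quasi-likelihood test, Benjamini-Hochberg over all tested genes). Among all tested genes 13.2% were called higher and 15.5% lower. At an unadjusted p under 0.05, 1 of the 8 genes was lower (Unc45b), as were 20.8% of all tested genes, and DESeq2 also called 0 lower, while leaving out control replicate 3 gave 1. The median log2 fold change of the 8 genes was 0.28. Only Neb also passed the 2-fold limit used in the study, a log2 fold change above 1, as did 4.59% of all tested genes in that direction. In CPM, 5 of the 8 genes had every miR-322/-503 library above every control library, against 21.6% of all tested genes, and 1 had every miR-322/-503 library below, against 23.5%.

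**Figure D1:**
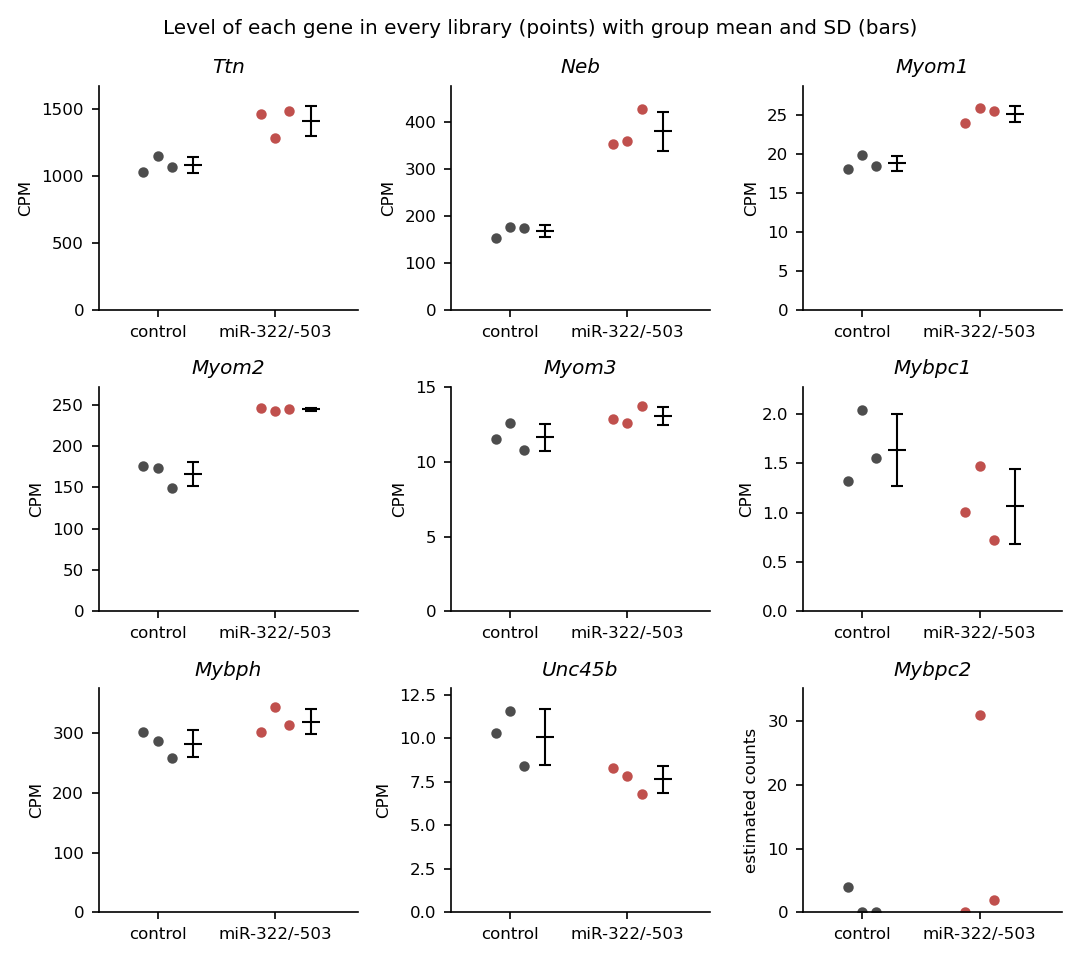
Level of the 9 genes in each library: CPM on the y axis (estimated counts for Mybpc2), control libraries in grey and miR-322/-503 libraries in red, with the group mean and SD as bars except for Mybpc2. Ttn, Neb, Myom1 and Myom2 had all miR-322/-503 points clearly above the control points, while Mybph and Mybpc1 overlapped.

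Ttn (ENSMUSG00000051747, GRCm38, chr2:76703980-76982547, minus strand) encodes titin. It was read at 1027, 1150 and 1069 CPM in the control libraries and at 1465, 1283 and 1484 CPM in the miR-322/-503 libraries. The groups did not overlap, and miR-322/-503 replicate 2 was the lowest of its group. Ttn rose by a log2 fold change of 0.38 (SE 0.07, adjusted p = 0.00733), or 1.30-fold in counts. Per length the rise was of like size: TPM (a level corrected for transcript length and depth) was 25.4, 24.9 and 25.2 in control and 37.8, 29.8 and 38.6 in miR-322/-503 cells, a ratio of means of 1.41.

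The 250 bases before the RefSeq start of Ttn (chr2:76982548-76982797, minus strand, GRCm38.p6) are printed because Ttn rose and because this stretch holds a match to the binding motif of MEF2, a family of muscle transcription factors, in capitals.
Ttn: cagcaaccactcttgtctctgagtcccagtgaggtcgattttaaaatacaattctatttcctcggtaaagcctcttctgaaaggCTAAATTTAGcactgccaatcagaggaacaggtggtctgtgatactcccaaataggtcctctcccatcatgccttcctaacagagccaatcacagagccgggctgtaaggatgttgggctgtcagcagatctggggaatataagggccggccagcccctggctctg
The MEF2 motif was found in 3.19% of the 32851 RefSeq promoter windows of the same 300 bases. Of the 7 genes of the set with a promoter entry, Ttn and Myom3 held it, and Myom3 was not called (log2 fold change 0.17, adjusted p = 0.246). Mef2c, the gene for a MEF2 factor, was itself read at 1.90 ± 0.51 CPM in control and 23.3 ± 3.14 CPM in miR-322/-503 cells (log2 fold change 3.61, SE 0.21, adjusted p = 2.23e-05). A motif match is a description of the letters and no evidence of binding.

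Genes whose level followed that of Ttn most closely over the 6 libraries were sought among 9655 genes with at least 10 CPM on average, by the root mean square difference of centred log2 CPM. The nearest were Xrcc4 (0.03), Pdp1 (0.04), Exoc6 (0.04), Gm10053 (0.04) and Ccdc127 (0.05). None of them is a sarcomere gene by name. Of the other genes of the set, Myom1 was nearest to Ttn at rank 217 (0.09), followed by Myom3 at rank 780 and Myom2 at rank 1060, and Neb was at rank 7808 (0.40).

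Neb (ENSMUSG00000026950, chr2:52136647-52378474, minus strand) encodes nebulin, and it had the largest log2 fold change in counts of the 8 tested genes. Its CPM was 154, 177 and 175 in the control libraries and 354, 359 and 427 in the miR-322/-503 libraries. The lowest miR-322/-503 library was thus far above the highest control library. The log2 fold change was 1.17 (SE 0.10, adjusted p = 0.000111), or 2.26-fold.

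The rise of Neb depended on the scale. Read coverage per base, deposited for each library, was 29.5, 36.1 and 36.6 in control and 83.6, 66.7 and 79.6 in miR-322/-503 cells. It is the count divided by a fixed gene-model length (30247 to 30254 bases for Neb in every library), so it restates the count and is no separate scale. TPM was 39.2, 42.0 and 40.6 in control and 45.0, 49.1 and 53.3 in miR-322/-503 cells. All miR-322/-503 libraries were again higher, but the ratio of mean TPM was only 1.21, and limma on log2(TPM + 1) gave a log2 difference of 0.27 (adjusted p = 0.0555), which missed the threshold. The TPM ratio of Neb was below those of Myom2 (1.45), Ttn (1.41) and Myom1 (1.39), so its first place in counts did not hold per length. In that test 10.1% of 15884 genes were called higher, among them Ttn, Myom1 and Myom2.

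Counts and TPM part when the reads are assigned to transcripts of another length. The abundance-weighted mean length of the Neb transcripts was worked out from the deposited count and FPKM (fragments scaled by length and depth) of each library. This measure was added after the gap between counts and TPM was seen and restates that gap in bases, so it is no independent evidence of it. This implied length was 7541, 7925 and 8128 bases in the control libraries and 15133, 14007 and 14324 bases in the miR-322/-503 libraries. The groups lay far apart, at 7865 ± 298 and 14488 ± 580 bases. The log2 difference was 0.88 (SE 0.04, adjusted p = 0.0474, limma over 12291 genes with at least 100 counts in every library).

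Such a shift was rare among the genes measured. The test called 4 of the 12291 genes, or 0.0325%, and by size of the increase Neb was at rank 5. The median absolute log2 difference in implied length was 0.0175 over all these genes, and 62 genes had 0.5 or more. Leaving out any 1 library kept the Neb difference between 0.85 and 0.91 but raised its adjusted p to between 0.0956 and 0.219.

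The M21 release of the GENCODE annotation lists 13 Neb transcripts of 582 to 22489 bases. The longest are protein-coding, Neb-202 with 22489 bases, Neb-203 with 21456 and Neb-201 with 10298. The implied means of both groups lay below the lengths of Neb-202 and Neb-203, the control means also below that of Neb-201, so on these models part of the assigned abundance lay on shorter transcripts in both groups. Transcript-level values were not analysed here, and whether the shift lies in the RNA or in the assignment of reads to models was not tested.

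**Figure D2:**
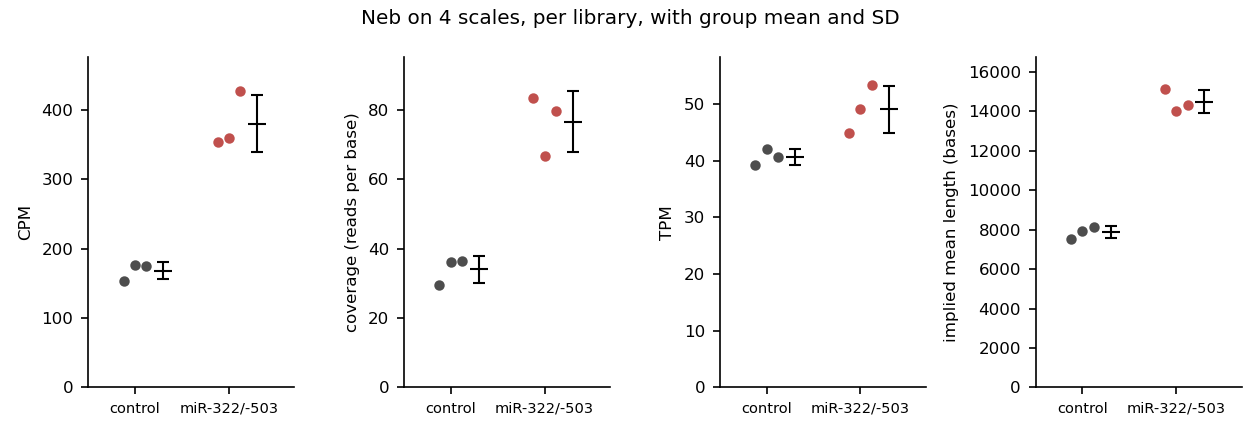
Neb in each library as CPM, as read coverage per base, as TPM and as implied mean transcript length in bases, with control in grey, miR-322/-503 in red and bars for mean and SD. Counts and coverage rose about 2.26-fold, TPM by 1.21-fold, and the implied length went from 7865 to 14488 bases.

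For the other 6 genes with enough counts the implied length moved little. In Ttn it was 77756 to 87281 bases in control and 68673 to 82370 bases in miR-322/-503 cells, with a log2 difference of -0.12 (SE 0.09, adjusted p = 0.950). Myom1, Myom2, Myom3 and Mybph had overlapping groups and log2 differences between -0.08 and 0.02. In Unc45b the groups did not overlap, but the means were 3554 and 3559 bases. Groups in which every miR-322/-503 library was longer made up 6.7% of all genes measured, so this pattern alone sets no gene apart.

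The ratio of Neb to Ttn within a library accordingly had no stable direction. In log2 TPM it was 0.63, 0.76 and 0.69 in control and 0.25, 0.72 and 0.46 in miR-322/-503 cells, a difference of -0.21 (two-sided exact permutation test, p = 0.3). With estimated counts the same ratio differed by 0.79 in favour of the miR-322/-503 group (exact permutation p = 0.1). With 3 libraries against 3 this exact permutation test cannot go below p = 0.1.

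Of the myomesin genes, Myom1 and Myom2 rose and Myom3 was not called. Myom1 (ENSMUSG00000024049, chr17:71002633-71126856, plus strand) encodes myomesin 1, the M-band protein present in all striated muscle. Its CPM was 18.1, 19.9 and 18.5 in control and 24.0, 25.9 and 25.5 in miR-322/-503 cells. The groups did not overlap, and the log2 fold change was 0.42 (SE 0.08, adjusted p = 0.00686).

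Myom1 was also the only gene of the set with a match to a microRNA seed in its longest annotated 3' untranslated region (UTR). A match was the heptamer TGCTGCT for miR-322-5p or CGCTGCT for miR-503-5p. The Myom1 match lies in transcript Myom1-203 at bases 53 to 59 of a 3'UTR of 487 bases (chr17:71126422-71126428, plus strand, GRCm38) and is shown with the heptamer in capitals.
Myom1 seed match: gccacccatcaTGCTGCTgtcgtgaaaagg
The miR-322-5p heptamer occurred in 27.0% of 13488 tested genes with a 3'UTR and the miR-503-5p heptamer in 5.7%. The gene with the match was thus among those that rose, and the 3'UTRs of the other 8 genes, of 133 to 1145 bases, held neither heptamer. A match is no proof of a working site.

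The bases before the RefSeq start of Myom1 (chr17:71019307-71019556, plus strand, GRCm38.p6) are printed because they hold a CArG box, the motif of serum response factor, in capitals. This start lies inside the gene as deposited, downstream of its first base.
Myom1: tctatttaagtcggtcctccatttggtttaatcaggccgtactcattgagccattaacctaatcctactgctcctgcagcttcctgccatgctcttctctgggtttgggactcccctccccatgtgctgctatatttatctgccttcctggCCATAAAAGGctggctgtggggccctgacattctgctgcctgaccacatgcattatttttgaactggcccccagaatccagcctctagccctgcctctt
The CArG box was found in 1.63% of the promoter windows, and in no other of the 7 genes of the set with a promoter entry (all but Neb and Myom2).

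Myom2 (ENSMUSG00000031461, chr8:15057653-15133541, plus strand) encodes M-protein, the myomesin typical of fast fibres and heart. Its CPM was 176, 174 and 150 in control and 246, 242 and 245 in miR-322/-503 cells. The miR-322/-503 libraries were almost equal and the lowest was above every control library. Myom2 rose by a log2 fold change of 0.55 (SE 0.07, adjusted p = 0.0013), and its TPM went from 64.6 ± 5.66 to 93.7 ± 3.49.

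Myom3 (ENSMUSG00000037139, chr4:135759715-135815564, plus strand) encodes the myomesin found in slower fibres. Its CPM was 11.6, 12.6 and 10.8 in control and 12.9, 12.6 and 13.8 in miR-322/-503 cells. In CPM the groups did not overlap, but control replicate 2 and miR-322/-503 replicate 2 were almost equal. In TPM they overlapped, with control at 6.23, 5.71 and 5.35 and miR-322/-503 at 6.43, 6.06 and 6.39. The log2 fold change was 0.17 with a 95% interval of -0.06 to 0.39 (adjusted p = 0.246).

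Set against Myom1 within each library, Myom2 had overlapping groups: the log2 TPM ratio was 3.15 ± 0.15 in control and 3.21 ± 0.12 in miR-322/-503 cells (exact permutation p = 0.8). With estimated counts this ratio differed by 0.14 (exact permutation p = 0.3). So few libraries cannot exclude a small shift. The log2 TPM ratio of Myom3 to Myom1 was -0.15, -0.51 and -0.36 in control and -0.66, -0.88 and -0.51 in miR-322/-503 cells. Those groups lay next to each other almost without a gap, and the difference of -0.35 had the smallest p this design allows (exact permutation p = 0.1, adjusted 0.2 over the 4 ratios that could be computed).

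The genes for myosin-binding proteins were not called. Mybph (ENSMUSG00000042451, chr1:134193448-134201232, plus strand) encodes myosin-binding protein H, a shorter relative of the C proteins. Its CPM was 302, 286 and 258 in control and 302, 343 and 313 in miR-322/-503 cells. In CPM control replicate 1 lay just within the other group, and the log2 fold change was 0.18 with a 95% interval of -0.01 to 0.37 (adjusted p = 0.148). In TPM the groups did not overlap, with control at 290, 288 and 261 and miR-322/-503 at 309, 351 and 299.

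The 250 bases before the start of Mybph (chr1:134193198-134193447, plus strand, GRCm38.p6) are printed because Mybph had the highest level per length of the set and because a pair of motifs of muscle promoters adjoin in them, in capitals. CAGCTG is a form of the E-box CANNTG that MyoD and myogenin bind, and CATTCC, here on the other strand, is the core of the MCAT motif of TEAD factors.
Mybph: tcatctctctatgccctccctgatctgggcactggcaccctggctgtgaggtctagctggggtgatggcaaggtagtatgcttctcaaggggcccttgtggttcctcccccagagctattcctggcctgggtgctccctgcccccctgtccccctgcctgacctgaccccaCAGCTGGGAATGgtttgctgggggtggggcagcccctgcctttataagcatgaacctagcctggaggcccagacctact
CAGCTG was present in 16.3% and CATTCC, read on both strands, in 14.7% of all promoter windows. Within the set Mybpc1 also held CAGCTG, and Ttn and Mybpc2 also held CATTCC. Any E-box CANNTG was present in 72.3%, and in all 7 promoters of the set.

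Mybpc1 (ENSMUSG00000020061, chr10:88518279-88605152, minus strand) encodes the slow skeletal form of myosin-binding protein C and was weakly read. It had 102, 168 and 131 estimated counts in control and 96, 110 and 54 in miR-322/-503 cells. The groups overlapped, and the log2 fold change was -0.62 with a 95% interval of -1.36 to 0.12 (adjusted p = 0.194).

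Mybpc2 (ENSMUSG00000038670, chr7:44501699-44524656, minus strand), the fast skeletal form, was nearly unread. It had 4, 0 and 0 estimated counts in control and 0, 31 and 2 in miR-322/-503 cells. Only miR-322/-503 replicate 2 was above the floor of 12 counts. Mybpc2 was left out by the filter on low counts and no fold is given.

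Unc45b (ENSMUSG00000018845, chr11:82910550-82943403, plus strand), the gene for the myosin chaperone, had lower values in the miR-322/-503 group. Its CPM was 10.3, 11.6 and 8.41 in control and 8.31, 7.85 and 6.78 in miR-322/-503 cells. In CPM the groups did not overlap, though control replicate 3 was close to miR-322/-503 replicate 1, and in TPM they did, with control at 5.56, 6.16 and 4.47 and miR-322/-503 at 4.49, 4.23 and 3.41. The log2 fold change of -0.40 (SE 0.15, adjusted p = 0.0818) was not called. It passed the threshold when control replicate 3 was left out (-0.52, adjusted p = 0.0351). Relative to Ttn, the log2 TPM ratio of Unc45b was -2.19, -2.02 and -2.50 in control and -3.07, -2.82 and -3.50 in miR-322/-503 cells, a difference of -0.90 (exact permutation p = 0.1, adjusted 0.2).

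**Figure D3:**
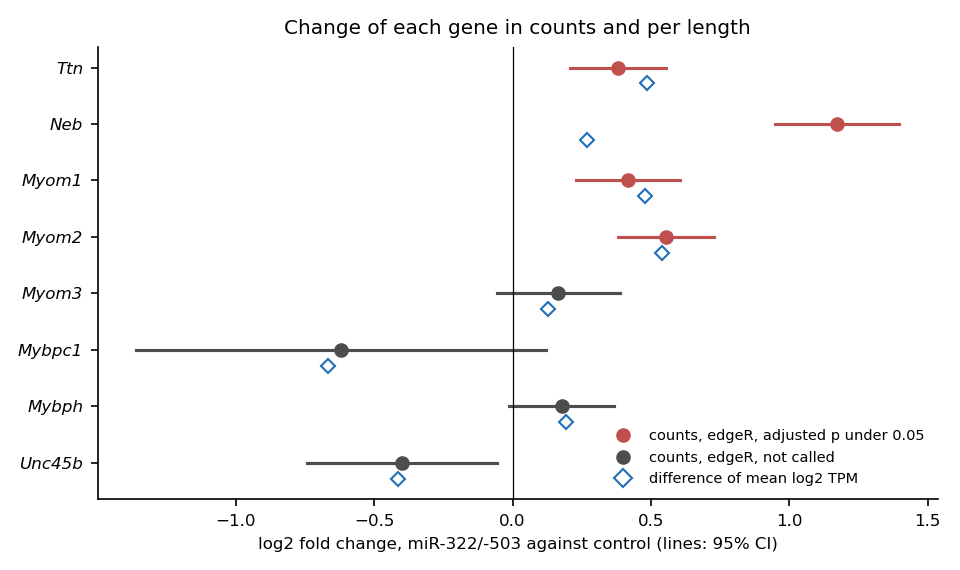
Log2 fold change of the 8 tested genes between the miR-322/-503 and control groups: circles give the edgeR estimate on counts with its 95% interval from the t distribution of the fit (red, adjusted p under 0.05), open diamonds the difference of mean log2 TPM. Circle and diamond lie close together for 7 genes, while for Neb they are at 1.17 and 0.27.

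Levels are comparable between genes only per length, and in TPM the order of the genes was the same in both groups. Mybph was highest at 280 ± 16.3 in control and 320 ± 27.4 in miR-322/-503 cells, followed by Myom2, Neb, Ttn, Myom1, Myom3, Unc45b, Mybpc1 and Mybpc2. Neighbours in this order had separate libraries in each group, except Myom3 (5.76 ± 0.44) and Unc45b (5.40 ± 0.85) in control cells, which overlapped. On the scale of read coverage the order of titin and nebulin depended on the group: Ttn was above Neb in control cells (55.9 ± 5.03 against 34.1 ± 3.94 reads per base), and in miR-322/-503 cells they overlapped (73.35 ± 13.95 against 76.7 ± 8.83).

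**Figure D4:**
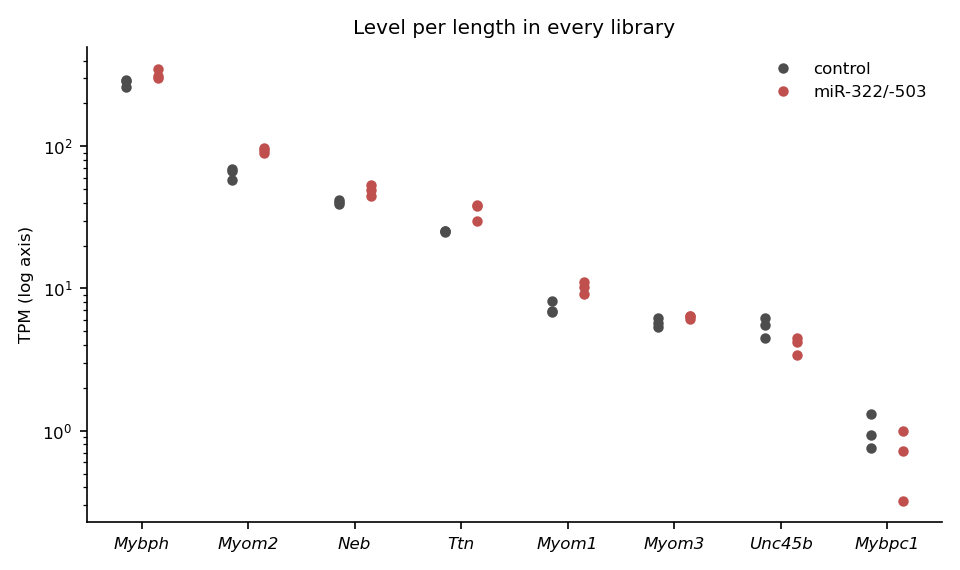
TPM of 8 of the genes in every library on a log axis, ordered by level, with control in grey and miR-322/-503 in red. Mybpc2, with 0 TPM in 3 libraries, is not drawn. Mybph lay near 300 TPM and Mybpc1 near 1 TPM.

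Genes that work with this set were described in lists of known partners. Over all tested genes 13.2% were called higher and 15.5% lower, and these shares apply to every list below, the marker lists included. A count near them sets no list apart. Of 16 titin partners, all tested, 5 rose and 2 fell, with a median log2 fold change of 0.22. Only 1 was called lower without control replicate 1 or 2 or miR-322/-503 replicate 1 or 2. Trim55, a ubiquitin ligase that binds titin at the M-band, rose from 11.4 ± 0.38 to 41.9 ± 1.33 CPM (log2 fold change 1.88, adjusted p = 4.51e-06). Trim54, a ligase of the same family, rose from 11.2 ± 1.99 to 18.2 ± 0.63 CPM (0.70, adjusted p = 0.00704). Fhl2, a LIM-domain protein that binds the titin spring, fell from 40.3 ± 2.48 to 22.9 ± 0.67 CPM (-0.82, adjusted p = 0.000209). Rbm20, the splicing factor of titin, was at 58.4 ± 2.78 and 58.7 ± 2.83 CPM and was not called, and it is named outside the rule for list genes because it acts on Ttn.

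Of 12 genes of nebulin relatives and thin-filament assembly, 7 rose and 3 fell, with a median of 0.59. Lmod3, an actin nucleator at the thin-filament end, rose from 13.4 ± 0.74 to 35.2 ± 4.08 CPM (log2 fold change 1.39, adjusted p = 8.34e-05). Nrap, a nebulin relative that acts in myofibril assembly, rose from 19.3 ± 1.63 to 43.2 ± 1.12 CPM (1.16, adjusted p = 6.24e-05). Nebl, the nebulin relative of the heart, was called higher at a very low level, 0.03 ± 0.05 against 0.66 ± 0.14 CPM (adjusted p = 0.0175), and no fold is given against a control at the floor.

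Of 14 further genes of the M-band, the thick filament and myosin assembly, 11 were tested, 5 rose and 2 fell, with a median of 0.31. Smyd1, a methyltransferase that works with UNC45B in myosin folding, rose from 22.1 ± 1.95 to 58.9 ± 1.40 CPM (log2 fold change 1.41, adjusted p = 2.24e-05). Lrrc39, an M-band protein that binds myosin, rose from 4.66 ± 0.31 to 10.96 ± 0.42 CPM (adjusted p = 0.000128). Obsl1, which links titin and myomesin in the M-band, fell from 87.1 ± 7.21 to 44.8 ± 3.21 CPM (-0.96, adjusted p = 0.000153). Mybpc3, Mybphl and Cmya5 stayed below 0.1 TPM in every library.

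**Figure D5:**
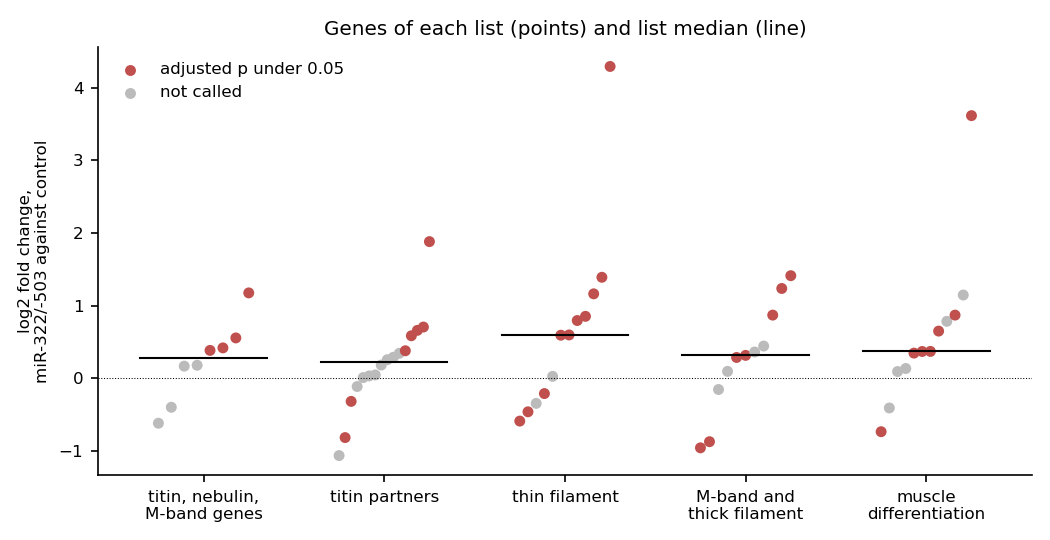
Log2 fold change between the miR-322/-503 and control groups for each tested gene of 5 lists, with genes at an adjusted p under 0.05 in red and the list median as a line. The medians are 0.28, 0.22, 0.59, 0.31 and 0.37 from left to right, and each of the last 4 lists has red points on both sides of 0.

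Markers of muscle differentiation and of other cell types also moved between the groups. In bulk RNA, fewer cells of a type and less RNA per cell cannot be told apart. Of 12 muscle differentiation genes, 6 rose and 1 fell, their median was 0.37, and their summed level was 3150 to 3510 TPM in control and 3620 to 3810 TPM in miR-322/-503 cells, with Pax7 below 0.1 TPM throughout. Mef2c and Ckm, muscle creatine kinase and also in the M-band list, rose (Ckm from 28.3 ± 1.13 to 51.6 ± 2.41 CPM, adjusted p = 9.57e-05), while Myog, the gene for myogenin, fell from 203 ± 15.8 to 122 ± 10.2 CPM (-0.74, adjusted p = 0.000665).

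Of 7 fibroblast markers, 6 were tested, 1 rose and 5 fell (median -0.74), and their sum was 6230 to 6550 TPM in control against 3900 to 4180 TPM, with Thy1 below 0.1 TPM. Lum (-3.19), Col1a2 (-1.19) and Pdgfra (-0.74) had the largest falls on the log2 scale. Col1a1 was the marker that rose, from 1835 ± 70.4 CPM in control to 2652 ± 125 CPM (0.53, adjusted p = 0.000323). Most of the fibroblast sum came from Col3a1 (3303 to 3561 TPM in control against 1950 to 2086 TPM) and Col1a2 (1894 to 2016 against 821 to 861 TPM). The fibroblast sum therefore does not describe each marker. Col1a1 and Col3a1 are named outside the rule for list genes. Of 5 smooth muscle markers, 4 were tested and 3 fell, Cnn1 (log2 fold change -4.52), Tagln (-2.44) and Acta2 (-1.11), and the sum was 6450 to 6710 TPM against 2650 to 2810 TPM, with Myh11 below 0.1 TPM. The part of these shifts in the changes of Ttn, Neb, Myom1 and Myom2 was not tested.

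Other lineages gave low sums in both groups. The 6 cardiomyocyte markers summed to 12.1 to 13.9 and 11.8 to 13.6 TPM, with Nkx2-5 lower and Nppb higher. The 6 adipocyte markers summed to 11.4 to 13.1 and 9.6 to 11.7 TPM, with Cebpa lower and Adipoq, Fabp4, Plin1 and Lep below 0.1 TPM. The 5 osteoblast markers summed to 26.9 to 28.8 and 23.9 to 27.7 TPM, with Alpl lower and Ibsp below 0.1 TPM.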

How the data were processed

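RNA-seq libraries of 3 control and 3 miR-322/-503 samples were used. The authors used Trim Galore for trimming, HISAT2 for alignment (GRCm38) and StringTie for gene quantification (versions not given in the sources used here). The estimated counts deposited in the count table were whole numbers and entered the tests as such. FPKM, TPM and read coverage per gene were deposited per library, computed by the authors with StringTie. Gene names were joined by gene identifier, and 55154 of 55421 identifiers were in GENCODE M21.

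Here, edgeR 4.0.16 (filterByExpr, TMM, quasi-likelihood test, R 4.3.3) compared the groups over 18140 genes, with calls at an adjusted p under 0.05. CPM used TMM library sizes. Alternatives were DESeq2 1.42.0, limma 3.58.1 on log2(TPM + 1), log2(TPM + 0.1) and log2(coverage + 1), other filters and size factors, a replicate block and leaving out each library. Implied transcript length was the count times bases per count divided by FPKM in coverage units, and was added after the data were seen. The planned version, count over deposited coverage, returned the fixed length of the gene model. Ratios used exact permutation tests (scipy 1.17.1). On simulated counts, edgeR called 80 of 100 genes changed by a log2 of 1 and 16 of 17414 unchanged genes (17614 genes). Changes below a log2 of 1 were not simulated, so the run does not cover the smaller changes reported above. Replicate libraries differed beyond sampling noise (chi-square per degree of freedom 13.5 or more). Intervals cover counting and library spread only.

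The genes and lists were chosen with earlier results of these data known. Named from each list were the 3 called genes with the largest absolute log2 fold change, and for Ttn its 5 nearest genes. Longest 3'UTRs came from GENCODE M21, promoters (250 bases before to 50 after the start) from RefSeq.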

Additional observations from a re-analysis of the deposited data

How the results depend on the processing

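Ttn, Myom1 and Myom2 were called higher under all 16 alternatives run for each, with log2 fold changes of 0.35 to 0.48, 0.38 to 0.47 and 0.48 to 0.60. Neb was called under 14 of 16, and missed the threshold with limma on log2(TPM + 1) (0.27, adjusted p = 0.0555) and on log2(TPM + 0.1) (0.27, adjusted p = 0.0564), where the count of genes of the set called higher was 3. The count called lower was 1, Unc45b, in place of 0 with the replicate block (log2 fold change -0.39, adjusted p = 0.0356) and without control replicate 3, with a range of 0 to 1 over the leave-one-out fits. Titin partners called lower were 1 with the replicate block and 1 without control replicate 1 or 2 or miR-322/-503 replicate 1 or 2, a leave-one-out range of 1 to 2 around 2, and they were 3 under a minimum of 10 counts per library, on counts per read pair and by limma on log2(coverage + 1). The log2 ratio of Neb to Ttn reversed to 0.79 with estimated counts. In TPM its difference ran from -0.33 (without miR-322/-503 replicate 2) to -0.10 (without miR-322/-503 replicate 1) over the leave-one-out fits. Genes whose count over coverage did not overlap between groups numbered 2, and 2 to 5 over the leave-one-out fits, but this measure returns the gene-model length and these counts carry no information on the RNA. The log2 implied length of Neb was 0.85 to 0.91 over the leave-one-out fits, none of them past the threshold, where fewer libraries were fitted. That of Myom2 ran from -0.0040 to 0.0033, of Myom3 from -0.034 to 0.077 and of Mybph from -0.049 to 0.00027, reversing in at least 1 fit each. The cause was not tested. Replicate numbers failed the rule for pairing: same-numbered libraries correlated at 0.264, 0.156 and 0.0994, though each library correlated best with its own number. The replicate block moved the calls over all genes from 2401 to 2667 higher and from 2817 to 3066 lower. Mybpc1 was not called under any alternative, at log2 fold changes of -0.92 to -0.40 over the leave-one-out fits. Mybpc2, with at most 31 counts in a library, was too thinly read to be tested.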

Other observations

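The test of implied transcript length called 3 genes besides Neb among the 12291 measured, named here after their values were seen. Spata13 had a log2 difference of 0.68 (SE 0.02, limma adjusted p = 0.0167) and Rhou of 0.10 (SE 0.01, adjusted p = 0.0474), both longer in the miR-322/-503 group, and Elmo1 was shorter (-0.31, SE 0.01, adjusted p = 0.0116). None of them is a sarcomere gene. At an unadjusted p under 0.05 there were 784 genes.

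Myom3 lies on chromosome 4, whose 1046 tested genes were centred at a log2 fold change of -0.19. Medians on the chromosomes of the other genes of the set were between -0.0335 (chromosome 8) and 0.0332 (chromosome 1).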
